A study of Mus musculus with 5 samples.

Results

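The genes described here are the nuclear-encoded subunits of the mitochondrial respiratory chain and of ATP synthase. They were taken from the count tables by symbol: Nduf followed by a, b, c, s or v and a digit for complex I, Sdha to Sdhd for complex II, symbols starting with Uqcr for complex III, Cox4 to Cox8 for complex IV and Atp5 for complex V. Of the 36401 gene identifiers in each file, 87 matched, after 1 pseudogene row (a symbol ending in -ps) was left out. They comprise 38 rows for complex I, 4 for complex II, 8 for complex III, 19 for complex IV and 18 for complex V. A filter on low counts left 80 of them for testing. Among the 87, 5 rows are not counted as subunits here: Cox4nb (now Emc8), Atp5sl (now Dmac2), Atp5s, the pseudogene Atp5l2 and a second identifier carrying the symbol Ndufb8, which is annotated as Gm20538. Atp5s keeps its symbol in the annotation used and was set apart by its role.

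RNA was sequenced from lobe 1 of the liver of BALB/C mouse pups on day 10 of life. The 2 genotypes were Mdr2+/+ (wild-type, 2 libraries) and Mdr2+/- (heterozygous, 3 libraries), bred from Mdr2-/- mice backcrossed to BALB/c, with the genotypes kept as littermates. The allele was missing from the germ line and thus in every cell type of the heterozygous pups. Mdr2 is the older name of Abcb4, the hepatocyte floppase that moves phosphatidylcholine into bile. The series title ties low ABCB4 to inflammation in biliary atresia, and the comparison asks which liver transcripts differ when an allele is missing.

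Complexes I, III and IV pump protons across the inner mitochondrial membrane as they pass electrons from NADH to oxygen, complex II feeds in electrons from succinate, and complex V uses the proton gradient to make ATP. Each complex combines a few catalytic core subunits with many small accessory subunits, and all except complex II also hold subunits encoded by mitochondrial DNA. Several subunits of complexes I and IV have isoforms made mainly in heart, skeletal muscle, testis or lung beside the general isoform found in liver. The mitochondrially encoded subunits, 13 in number, were not analysed here.

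Libraries held 11944157 to 17312851 estimated counts, with 18899 to 19536 genes above 0. Levels are given as CPM, counts scaled to library size with TMM factors, and fold changes are log2 ratios of heterozygous over wild-type. A gene is called when its adjusted p in the quasi-likelihood test of edgeR, adjusted by Benjamini-Hochberg across the 13959 genes tested, is below 0.05. Whether the libraries come from separate pups is not stated in the labels, so p-values reflect how far these samples vary and nothing wider. Abcb4 checked the labels: it measured 162 and 162 CPM in the wild-type libraries and 101, 97.7 and 92.6 CPM in the heterozygous ones (log2 fold change -0.74, SE 0.06, edgeR adjusted p = 0.00034).

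Transcripts of the respiratory chain were mostly slightly lower in heterozygous livers. Of the 80 tested genes, 24 were called lower (30.0%) and 0 higher, against 5.41% lower and 6.63% higher over all tested genes. The median log2 fold change was -0.18, against -0.0 over all tested genes, and 72 of the 80 values were negative. In 56 of the 80 genes (70.0%) every heterozygous library lay below both wild-type libraries, as it did in 22.7% of all tested genes. All 24 called genes were among these 56. Apart from Cox6b2, whose level fell by 85.7%, the called genes fell by 15.1% to 27.1%. Among the 56 genes that did not pass, 25 had an unadjusted edgeR p under 0.05. Leaving out the rows that are not subunits gave 24 lower of 77. The members are mostly short transcripts, and of all tested genes under 1000 bases with at least 20 CPM 35.7% were lower, against 43.8% of the members of that class. With an offset for transcript length in the model, 22 of the 24 calls were lost, leaving 2 lower and a median of -0.05. These are levels in whole tissue, where fewer cells of a type and less RNA per cell cannot be told apart.

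The count rested on few libraries. Without wild-type library 2 it dropped to 3 genes (Ndufa5, Ndufa8 and Cox6b2), with 2.82% of all tested genes lower in that fit. It was 14 without wild-type library 1 (2.47% of all tested genes), and 10, 9 and 13 without heterozygous libraries 1, 2 and 3 (3.62%, 2.74% and 3.24% of all tested genes). In the fits without a wild-type library that genotype has 1 library, which is assumed to vary as the heterozygous ones do, and fewer libraries also give the test less power. The 21 genes that lost their call without wild-type library 2 still had log2 fold changes of -0.32 to -0.18 in that fit.

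**Figure D1:**
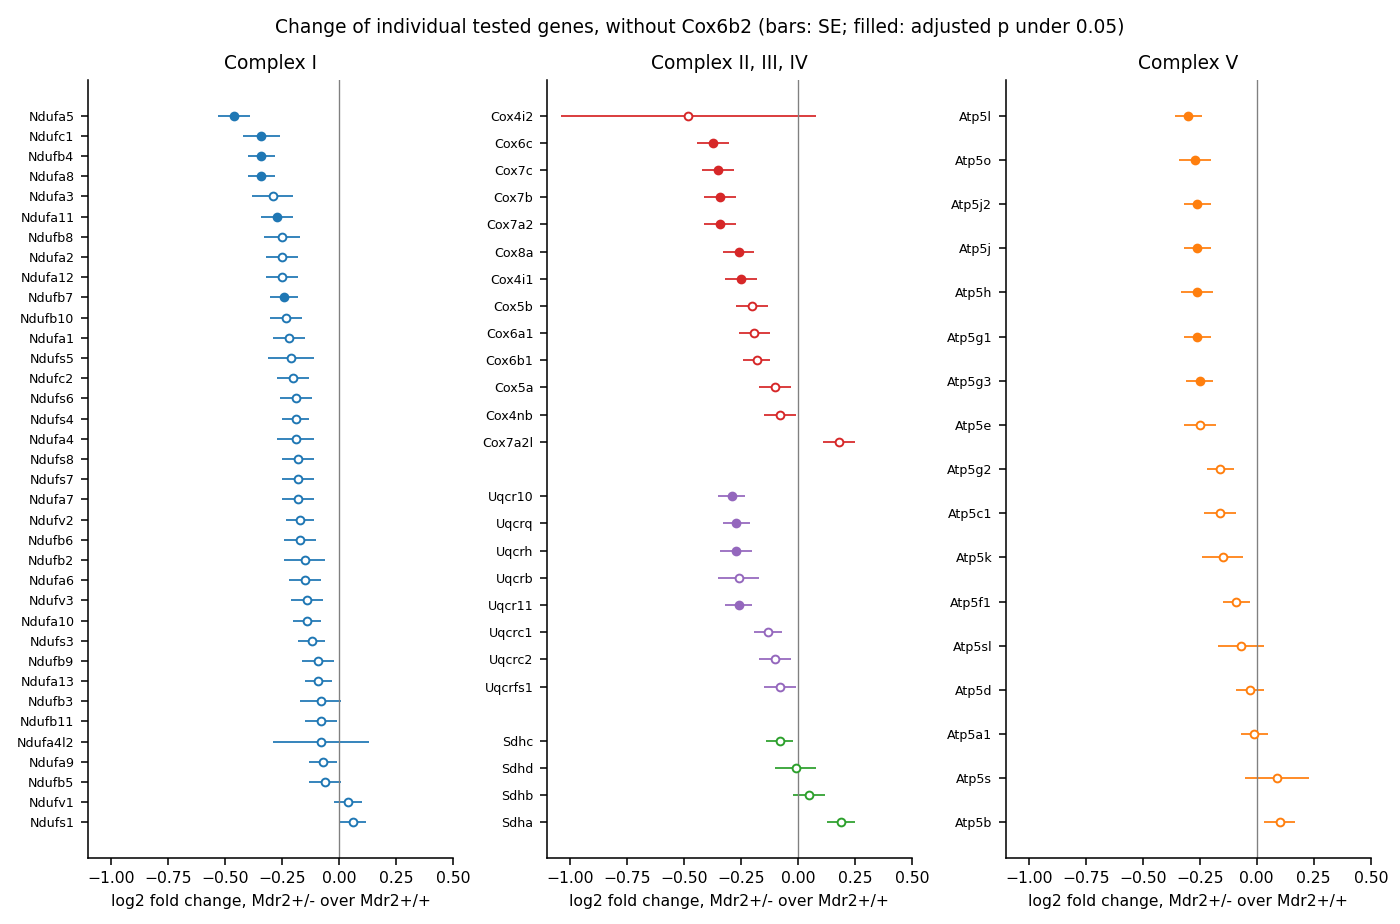
Log2 fold change of individual tested genes, without Cox6b2 (x axis, heterozygous over wild-type; bars are the SE), grouped by complex; filled points passed the edgeR test at an adjusted p under 0.05. Values for complexes I, III, IV and V lie mostly between -0.46 and 0, while the 4 complex II genes scatter around 0 (-0.08 to 0.19).

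The summed level of the subunits shows the same pattern in each library. All subunits together reached 11896 and 12820 CPM in the wild-type and 11192, 11306 and 11458 CPM in the heterozygous libraries, a difference of -8.41% between the means. The groups did not overlap, but wild-type library 1 lay closer to the heterozygous libraries than to wild-type library 2. By complex, the difference was -15.3% for complex IV, -12.0% for complex III, -9.7% for complex I and -5.52% for complex V. Abundant genes weigh most in such sums. In complex V, Atp5b and Atp5a1 averaged 1142 and 890.4 CPM in wild-type and did not pass (log2 fold change 0.10 and -0.01), so its sum says little about its other genes. Complex II differed by 3.98% in the other direction, with wild-type libraries at 814 and 906 CPM and the heterozygous libraries, at 900, 898 and 885 CPM, inside that range. Whether the complexes differ from each other was not tested.

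**Figure D2:**
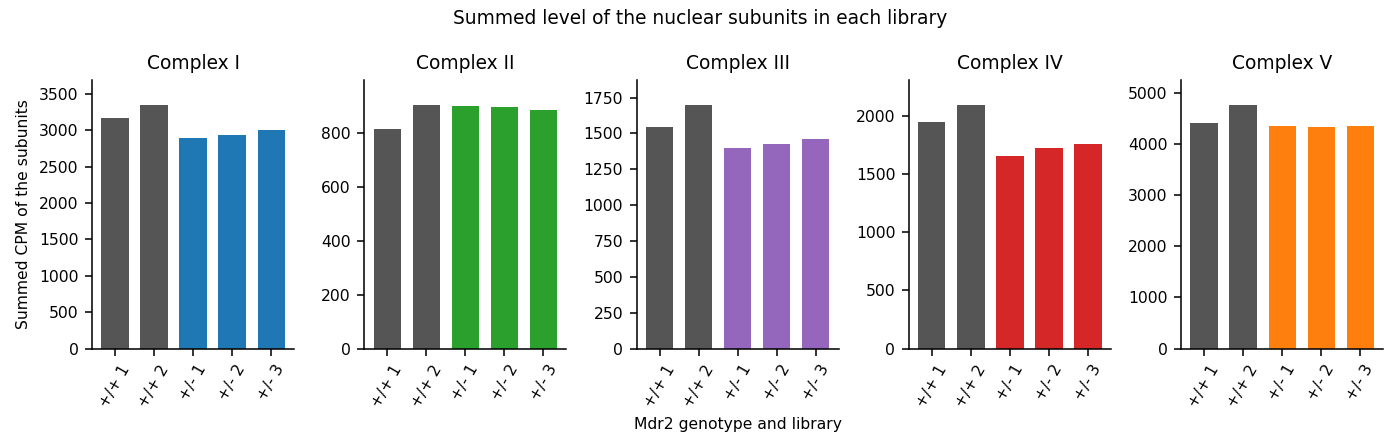
Summed CPM (y axis) of the nuclear subunits of each complex in each library (x axis; grey bars wild-type, coloured bars heterozygous). For complexes I, III, IV and V all 3 heterozygous bars are below both wild-type bars, and for complex II they lie between them.

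Complex I, the NADH dehydrogenase, held 37 tested genes, of which 6 were lower (16.2%) and 0 higher (median -0.18). All 6 were accessory subunits, which surround the catalytic core and carry no redox centre. For this and the other complexes the background is 5.41% lower over all tested genes. Among tested genes under 1000 bases with at least 20 CPM it is 35.7%. Ndufa5, an accessory subunit of the peripheral arm, measured 48.1 and 47.1 CPM in the wild-type and 33.8, 33.0 and 37.3 CPM in the heterozygous libraries (log2 fold change -0.46, SE 0.07, adjusted p = 0.00551). The heterozygous libraries all lay well below the wild-type ones, and the call held in all 15 alternative fits. Ndufa8, an accessory subunit on the intermembrane side, measured 104 and 104 CPM against 79.3, 82.2 and 85.6 CPM (log2 fold change -0.34, SE 0.06, adjusted p = 0.00925). Its groups were also apart, and its call was lost only in the 3 fits with a length offset described further on (adjusted p = 0.0818 to 0.131). Ndufb4, an accessory subunit of the membrane arm, measured 72.3 and 75.4 CPM against 60.9, 56.4 and 57.2 CPM (log2 fold change -0.34, SE 0.06, adjusted p = 0.0102). It shares 37.0% of the 50-base stretches of its transcript with other genes, so part of its count is uncertain, and it missed the threshold without wild-type library 2 (adjusted p = 0.0532).

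The other accessory subunits that passed were Ndufc1 (49.7 and 52.1 against 38.2, 38.9 and 43.4 CPM, log2 fold change -0.34), Ndufb7 (75.5 and 74.9 against 63.9, 63.2 and 64.4 CPM, -0.24) and Ndufa11 (62.3 and 61.1 against 49.4, 48.8 and 55.3 CPM, -0.27), each with groups that did not overlap. Their adjusted p-values were 0.021, 0.0296 and 0.0423. Each of the 3 lost its call without wild-type library 1 or 2 (adjusted p = 0.0624 to 0.152) and without heterozygous library 1 or 2 (0.0566 to 0.131), and Ndufb7 also without heterozygous library 3 (0.0786). Ndufb7 and Ndufa11 did not pass in DESeq2 either (adjusted p = 0.09 and 0.0889). With the length offset the 5 called complex I genes other than Ndufa5 moved to between -0.24 and -0.05 (adjusted p = 0.0768 to 0.663). Just outside the threshold lay Ndufa2, with 98.7 and 113 CPM against 90.2, 86.6 and 91.1 CPM (log2 fold change -0.25, adjusted p = 0.0552). Across the 29 accessory subunits, with Ndufa4 counted among them by symbol, all 29 values were negative, from -0.46 to -0.06, with a median of -0.19.

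The 7 core subunits, which carry the flavin, the iron-sulfur clusters and the quinone site, did not pass in either direction (0 of 7, median -0.12). In 4 of the 7 (57.1%) every heterozygous library still lay below both wild-type libraries, as it did in 22.7% of all tested genes. Ndufv2, an iron-sulfur subunit of the NADH-oxidising module, had a negative value (109.8 and 113 against 95.1, 103 and 100.1 CPM, -0.17, adjusted p = 0.114). Ndufs1, the largest core subunit, measured 128 and 136 CPM against 142, 139 and 133 CPM (0.06, adjusted p = 0.572). Ndufv1, which holds the flavin, measured 100.1 and 101 CPM against 99.7, 105 and 105 CPM (0.04, adjusted p = 0.746). The groups overlapped for Ndufs1 and Ndufv1. The difference between core and accessory subunits was not tested.

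Complex II, the succinate dehydrogenase that also serves the tricarboxylic acid cycle, had 0 of 4 genes past the threshold (median 0.02). Sdha, the flavoprotein, measured 275 and 299 CPM in the wild-type and 330.1, 323 and 328 CPM in the heterozygous libraries, with all heterozygous libraries above the wild-type ones, but did not pass (log2 fold change 0.19, SE 0.06, adjusted p = 0.0894). Sdhb, the iron-sulfur subunit, overlapped between the groups (149 and 159 against 153, 158 and 167 CPM, 0.05). So did Sdhd, a membrane anchor (224 and 268 against 256, 252 and 227 CPM, -0.01). The other anchor, Sdhc, measured 165 and 179.8 CPM against 161, 165 and 163 CPM, slightly below (-0.08, adjusted p = 0.449). The sign of the complex II median turned under library-size scaling alone (-0.02) and without wild-type library 1 (-0.07), so it has no stable direction.

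Complex III, the cytochrome bc1 complex, had 4 of 8 genes lower and 0 higher (median -0.26). All 4 belong to the 5 small subunits without redox centres. Uqcr10 measured 166 and 181 CPM in the wild-type and 143, 141 and 143 CPM in the heterozygous libraries (log2 fold change -0.29, SE 0.06, adjusted p = 0.0191). Uqcrq, which contacts the mitochondrially encoded cytochrome b, measured 216 and 221 CPM against 176, 182 and 187 CPM (-0.27, adjusted p = 0.0232). In both genes the 3 heterozygous libraries lay close together and below wild-type. Uqcr11 (113 and 121 against 96.5, 98.6 and 99.8 CPM, -0.26, adjusted p = 0.0266) and Uqcrh, the acidic hinge protein beside cytochrome c1 (128 and 145 against 108, 113 and 117 CPM, -0.27, adjusted p = 0.0364), were also apart. The fifth small subunit, Uqcrb, had a value of the same size but a wider spread (160.2 and 181 against 131, 141 and 155 CPM, -0.26, adjusted p = 0.0787), and 43.4% of its 50-base stretches occur in other genes. With the length offset the 4 values moved to between -0.07 and -0.03, and none passed (adjusted p = 0.552 to 0.795). None of the 4 calls held without wild-type library 2 (adjusted p = 0.0965 to 0.189) or heterozygous library 2 (0.0703 to 0.0966). Without heterozygous library 1 Uqcr10 alone held (0.044), without heterozygous library 3 Uqcrq alone (0.0495), and without wild-type library 1 Uqcrq and Uqcr11 were lost (0.0691 and 0.0506).

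The large core proteins Uqcrc1 and Uqcrc2 and the Rieske iron-sulfur protein Uqcrfs1 did not pass (0 of 3). Uqcrc1 measured 281 and 301 CPM against 268, 263 and 269.6 CPM (log2 fold change -0.13, adjusted p = 0.228). Uqcrc2 (-0.10, adjusted p = 0.425) and Uqcrfs1 (-0.08, adjusted p = 0.476) overlapped between the groups.

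Complex IV, cytochrome c oxidase, had 7 of 14 tested genes lower and 0 higher (median -0.25). Of the 10 general nuclear subunits with Cox symbols 6 fell, and all 10 values were negative. The 6 were Cox4i1, Cox6c, Cox7a2, Cox7b, Cox7c and Cox8a, which surround the mitochondrially encoded core. Cox6c measured 105 and 116 CPM in the wild-type and 81.8, 84.6 and 90.0 CPM in the heterozygous libraries (log2 fold change -0.37, SE 0.07, adjusted p = 0.011). Cox7a2 measured 141 and 156 CPM against 118, 115 and 118 CPM (-0.34, SE 0.07, adjusted p = 0.0109). Cox7b averaged 211 ± 17.4 CPM (SD, n = 2) against 166 ± 3.36 CPM (SD, n = 3; log2 fold change -0.34, SE 0.07, adjusted p = 0.014 in edgeR). In these 3 genes the heterozygous values lay close together and wild-type library 2 was the highest of the 5.

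Cox7c (128 and 133 against 99.3, 100.1 and 109 CPM, log2 fold change -0.35, adjusted p = 0.0111) shares 53.0% of its 50-base stretches with other genes, so its count is less certain. Cox8a (229 and 233 against 182, 195 and 200.2 CPM, -0.26, adjusted p = 0.0316) shares 0.0%. Cox4i1, the subunit through which ATP is known to inhibit the enzyme, lay just inside the threshold with 325 and 356 CPM against 277, 287 and 297 CPM (-0.25, adjusted p = 0.0443). Its call was lost when any of the 5 libraries was left out (adjusted p = 0.0557 to 0.204), as was that of Cox8a (0.0537 to 0.116). Cox4i1 also overlaps Emc8 on the opposite strand, which had 379.8 counts on average against 4501. Of the 6 genes, none was called without wild-type library 2, where adjusted p ran from 0.0575 to 0.204, or with the length offset, where log2 fold changes ran from -0.21 to -0.06 (adjusted p = 0.0815 to 0.602). Cox6b1 (-0.18, adjusted p = 0.0931), Cox5b (-0.20, 0.0936), Cox6a1 (-0.19, 0.132) and Cox5a (-0.10, 0.381) did not pass. The only complex IV gene with a positive value was Cox7a2l, a factor linked to supercomplexes of complexes III and IV. Its role in these livers was not tested. Cox7a2l measured 77.8 and 81.7 against 93.0, 93.1 and 84.9 CPM (0.18, adjusted p = 0.117), and its heterozygous libraries all lay above wild-type. It shares 19.8% of its 50-base stretches with other genes.

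The tissue-specific isoforms include the largest change of the 80 genes, Cox6b2. This gene encodes the testis isoform of subunit 6b, a small intermembrane-side subunit next to the cytochrome c docking site. Cox6b2 measured 19.9 and 16.9 CPM in the wild-type and 3.77, 2.0 and 2.33 CPM in the heterozygous libraries (300.76 and 201.2 against 47.5, 33.0 and 40.0 estimated counts). The 3 heterozygous libraries were far below both wild-type libraries (log2 fold change -2.81, SE 0.20, adjusted p = 0.00014), and the gene was called lower in all 15 alternative fits, at log2 fold changes from -2.47 to -3.08. The general isoform Cox6b1 measured 195 and 205 CPM against 169.7, 178 and 182 CPM. Per kilobase of transcript, Cox6b2 made up 11.9% and 9.87% of the pair in the wild-type libraries and 2.87%, 1.47% and 1.67% in the heterozygous ones, a mean ± SD of 10.9% ± 1.44 (n = 2) against 2.0% ± 0.753 (n = 3). The exact two-sided permutation test of this share gave p = 0.1, the smallest that 2 against 3 libraries allow. Cox6b1 and Cox6b2 share 0.0% of their 50-base stretches with any other gene, each other included.

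**Figure D3:**
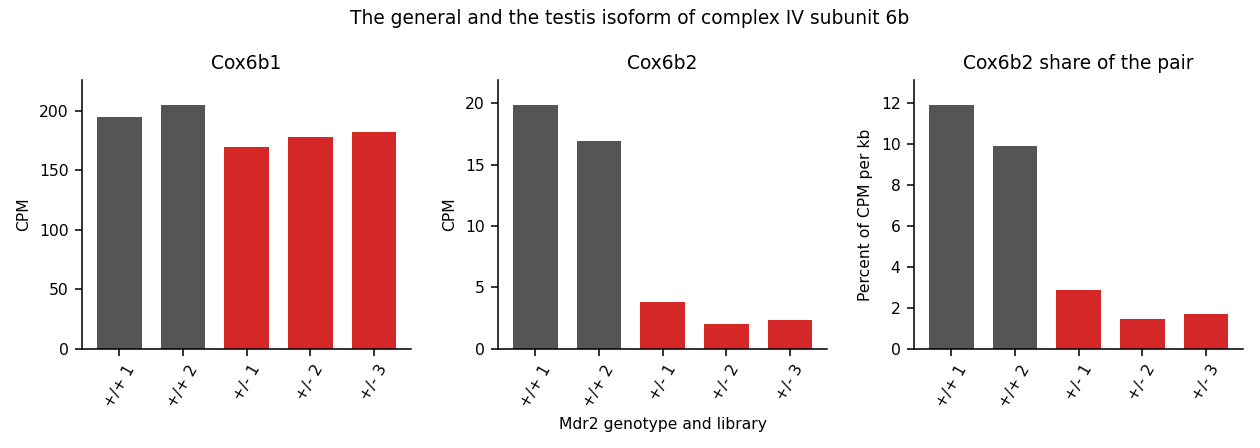
CPM of Cox6b1 and Cox6b2 and the share of Cox6b2 in the CPM per kilobase of the pair, in percent, in each library (x axis; grey wild-type, red heterozygous). Cox6b2 falls from 19.9 and 16.9 CPM to between 2.0 and 3.77 CPM, while Cox6b1 goes from 195 and 205 CPM to between 169.7 and 182 CPM.

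Cox6b2 lies on chromosome 7 of mm10, and its neighbours within 100000 bases were compared. Rpl28, a ribosomal protein gene (224 and 209.5 against 170.3, 186 and 189 CPM, log2 fold change -0.26, adjusted p = 0.0442), and Ube2s, a ubiquitin-conjugating enzyme of mitosis (44.4 and 43.7 against 31.8, 33.0 and 36.9 CPM, -0.38, adjusted p = 0.016), were lower. Ppp6r1 (0.21, adjusted p = 0.0519), Hspbp1 (-0.02), Suv420h2 (-0.14), 2210411K11Rik (0.01) and Isoc2b (-1.44, adjusted p = 0.0872) did not pass. No tested neighbour had a value as far from 0 as Cox6b2. Markers of testis germ cells were near 0 in both genotypes: Prm1, Prm2, Tnp1 and Tnp2 were at 0 in all 5 libraries, and the 6 listed markers summed to 0.859 to 1.01 CPM (wild-type) and 0.668 to 1.1 CPM (heterozygous).

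The other tissue-specific isoforms were low or at 0. Ndufa4l2, an isoform of Ndufa4 induced by hypoxia, was at 2.84 and 2.61 CPM against 2.12, 2.79 and 2.79 CPM (log2 fold change -0.08, adjusted p = 0.86). It overlaps the more abundant Shmt2 on the opposite strand, but 0.0% of its 50-base stretches occur in other genes. Reads of Ndufa4l2 are few. Its general partner Ndufa4, counted by symbol under complex I although the protein is found in complex IV, measured 221 and 261 CPM against 206, 216 and 211 CPM (-0.19, adjusted p = 0.144). Cox4i2, the lung isoform, was at 0.235 to 0.814 CPM with overlapping groups (-0.48, SE 0.56, adjusted p = 0.627). Cox7a1, the heart and muscle isoform, had 23 counts over the 5 libraries, and Cox6a2, likewise of heart and muscle, had 2 counts, both in wild-type. Cox7b2, Cox8b and Cox8c had 0 counts, which allows up to 0.252 CPM in the shallowest library (3 counts, counting error only). The untested rows were these 5, the second Ndufb8 identifier at 0 and Atp5l2 with 48.44 counts. Muscle and brown fat markers were also low: Myh1, Myh4 and Ucp1 were at 0 in every library, and the 6 striated muscle markers summed to 5.72 to 7.33 CPM (wild-type) and 5.87 to 7.06 CPM (heterozygous). The 4 heart muscle markers summed to 0.925 to 0.991 CPM (wild-type) and 0.465 to 3.03 CPM (heterozygous).

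Complex V, the ATP synthase, had 7 of 17 tested genes lower (41.2%, against 5.41% of all tested genes and 35.7% of short ones at 20 CPM or more) and 0 higher (median -0.16). The calls fell on the membrane-embedded ring, the peripheral stalk and the small membrane subunits. In the ring of c subunits, which turns as protons pass, 2 of 3 genes were lower. Atp5g1 measured 219.6 and 218 CPM in the wild-type and 181, 187 and 182 CPM in the heterozygous libraries (log2 fold change -0.26, SE 0.06, adjusted p = 0.0227). Atp5g3 measured 461 and 489.7 CPM against 394, 398 and 406 CPM (-0.25, SE 0.06, adjusted p = 0.0286). Atp5g2, the third gene for the same mature protein, measured 148 and 161 CPM against 136, 140.3 and 139 CPM and did not pass (-0.16, adjusted p = 0.146). Of their 50-base stretches, Atp5g3 shares 0.0% with other genes, Atp5g1 66.0% and Atp5g2 all of them, so Atp5g3 gives the most certain count of the 3.

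Of the 4 peripheral stalk genes, which hold the F1 head still against the turning ring, 3 were lower. Atp5j measured 102 and 111 CPM against 88.5, 87.1 and 90.7 CPM (log2 fold change -0.26, adjusted p = 0.0283), and Atp5o, the oligomycin sensitivity protein, 169 and 178 CPM against 142, 137 and 152 CPM (-0.27, adjusted p = 0.0313). Atp5h measured 123 and 119 CPM against 93.6, 103 and 106 CPM (-0.26, adjusted p = 0.0398). The groups were apart in each, and the fourth, Atp5f1, did not pass (-0.09, adjusted p = 0.383). Among the 3 small membrane subunits, Atp5l (183 and 190.4 against 149, 155 and 151 CPM, -0.30, SE 0.06, adjusted p = 0.0135) and Atp5j2 (133 and 138 against 109.6, 115 and 113 CPM, -0.26, adjusted p = 0.0219) were lower, while Atp5k did not pass (-0.15). Atp5l, Atp5h and Atp5o share 84.8%, 50.5% and 50.3% of their 50-base stretches with other genes. None of the 7 complex V calls held without wild-type library 2 (adjusted p = 0.0674 to 0.141) or with the length offset, where log2 fold changes ran from -0.13 to -0.06 (adjusted p = 0.207 to 0.56). Atp5g1, Atp5g3, Atp5h and Atp5j2 lost theirs when any of the 5 libraries was left out (0.0512 to 0.154), Atp5j also without any of the heterozygous libraries (0.0605 to 0.0919), and Atp5o without wild-type library 1 or heterozygous library 1 or 2 (0.0721 to 0.112).

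The catalytic F1 part of complex V showed 0 calls in 5 genes. Atp5b, the catalytic beta subunit, measured 1081 and 1203 CPM in the wild-type and 1244, 1211 and 1206 CPM in the heterozygous libraries (log2 fold change 0.10, adjusted p = 0.394). Atp5a1, the alpha subunit, overlapped between the groups (852 and 929 against 900.3, 877 and 883 CPM, -0.01, adjusted p = 0.967). Of the central stalk genes, Atp5e came nearest to the threshold (105 and 116 against 87.4, 94.2 and 97.2 CPM, -0.25, adjusted p = 0.0577), and Atp5c1 (-0.16) and Atp5d (-0.03) did not pass. Grouped after the values were seen, the 19 core subunits of complexes I and III, complex II subunits and F1 subunits had 0 calls and a median of -0.08. The other 54 general subunits had 23 calls and a median of -0.24.

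Levels per kilobase of transcript ranked the subunits by abundance in wild-type liver. Atp5g3 (666 CPM per kilobase), Atp5b (596), Uqcrq (539.7) and Cox4i1 (457) stood at the top. The genes counted under complex I were lower, with Ndufa12 (32.7) and Ndufc1 (40.7) at the bottom of the general subunits. Their highest value was that of Ndufa4 (395), whose protein is found in complex IV. Cox6b2 reached 39.6 CPM per kilobase in wild-type, near the lowest complex I subunits, and 5.8 in heterozygous livers.

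The genes called lower were mostly short, and across the tested respiratory chain genes the change went with transcript length. Among the called genes alone this relation was not tested. Cox7b and Ndufc1, the called genes of 1000 bases and over, both stood at -0.34. The tested respiratory chain genes had a median length of 786 bases, against 2743 bases over all tested genes. Across the 80 genes the log2 fold change and length had a Spearman correlation of 0.60 (0.59 without Cox6b2), and across 13571 tested genes with a known length 0.29; genes are not independent, and all values come from the same 5 libraries. Under 1000 bases, 22 of 51 respiratory chain genes were lower (43.1%, median -0.25), against 14.8% of all tested genes of that length (median -0.19). Short genes at high expression were lower more often: 35.7% of all genes under 1000 bases with at least 20 CPM, with a median of -0.20. The respiratory chain genes of that class had 21 of 48 lower (43.8%, median -0.25), a share not far from that background. From 1000 to under 2000 bases 2 of 22 were lower, against 8.29% of all genes, and at 2000 bases and over 0 of 7, against 3.19%. The summed level of the subunits under 1000 bases differed by -14.7% between genotypes, and that of the longer ones by -1.52%. The sum of the longer ones includes the abundant Atp5b and Atp5a1, which did not pass.

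**Figure D4:**
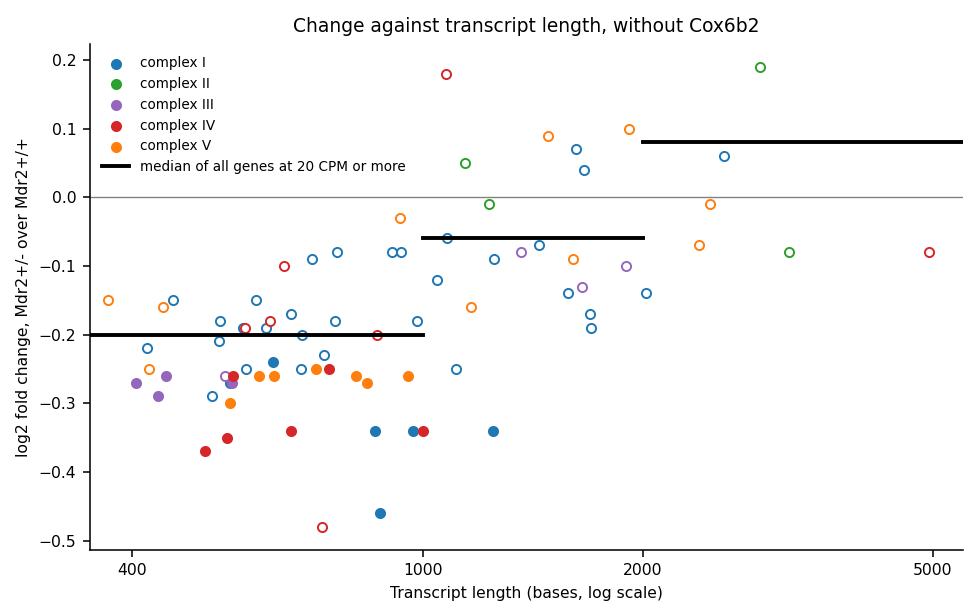
Log2 fold change (y axis, heterozygous over wild-type) against transcript length (x axis, log scale) for the tested genes without Cox6b2; colours mark the complex, filled points passed the edgeR test, and black lines are the medians of all genes at 20 CPM or more in 3 length classes. Of the 50 members under 1000 bases, 32 lie on or below the black line of short genes (-0.20) and 18 above it, and the members over 2000 bases lie between -0.14 and 0.19.

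Roles and lengths went together: the 19 core, F1 and complex II genes had a median length of 1623 bases and the other 54 general subunits 652 bases, so role and length cannot be told apart here. When an offset for transcript length was added to the model, 2 genes stayed lower, Ndufa5 (log2 fold change -0.31, adjusted p = 0.0306) and Cox6b2 (-2.59, adjusted p = 0.000216), and the median moved from -0.18 to -0.05. In the same fit 1 gene passed as higher, Cox7a2l (0.30, adjusted p = 0.0286). Over all tested genes that fit called 3.78% lower and 4.92% higher. The length taken was that of the shortest principal transcript, and the longest principal transcript instead gave 3 lower genes, the third being Atp5g1 (-0.32, adjusted p = 0.0111). The cause of the relation with length was not tested.

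**Figure D5:**
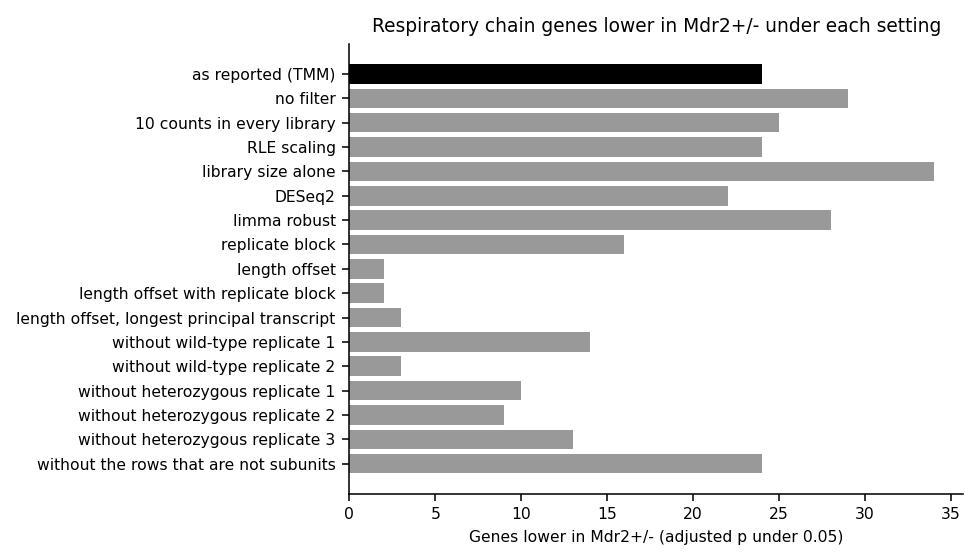
Number of respiratory chain genes called lower (x axis) under each setting (y axis; black bar as reported). The count is 24 as reported, 2 or 3 with a length offset and 3 without wild-type library 2.

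Genes that work with the respiratory chain but lie outside the symbol rule were compared from lists of related genes. Over all tested genes 5.41% were lower and 6.63% higher, which is the background for each list. Of 35 called genes that were named, respiratory chain genes included, 10 kept the same result with the length offset and 25 were weaker. Of 6 further subunits and partners, 3 were lower and 0 higher (median -0.32). They were Cycs, the electron carrier cytochrome c (184 and 184 against 134, 144 and 146 CPM, log2 fold change -0.38, adjusted p = 0.00597), and the small ATP synthase subunits Usmg5 (89.3 and 103 against 70.6, 71.2 and 76.5 CPM, -0.40, adjusted p = 0.011) and 2010107E04Rik (-0.32, adjusted p = 0.033). The transcript of Cycs is long, at 3123 bases, while those of Usmg5 and 2010107E04Rik have 362 and 366 bases. Cyc1, the cytochrome c1 of complex III and thus another catalytic subunit, did not pass (-0.08, adjusted p = 0.432), nor did Ndufab1 (-0.19) or the ATP synthase inhibitor Atpif1 (-0.32, adjusted p = 0.0724).

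Assembly factors showed few calls. Among 14 for complex I, 0 were lower and 1 was higher, Nubpl, which delivers iron-sulfur clusters (8.32 and 9.67 against 14.1, 16.3 and 13.4 CPM, log2 fold change 0.71, adjusted p = 0.00881). Among 22 for complex IV, Taco1, a translational activator of the mitochondrially encoded subunit 1, was higher (7.4 and 10.1 against 14.8, 16.3 and 14.0 CPM, 0.80, adjusted p = 0.00864) and 2010305A19Rik lower (-0.31, adjusted p = 0.0476). The 10 factors for complexes II and III and the 5 for complex V had 0 calls. Median log2 fold changes of these lists were 0.01 (complex I), -0.08 (II and III), -0.17 (IV) and 0.02 (V), and the difference from the subunits was not tested.

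Among 14 enzymes of the tricarboxylic acid cycle, 2 were lower (median -0.07): Mdh2, mitochondrial malate dehydrogenase (245 and 242 against 187, 191 and 201 CPM, log2 fold change -0.33, adjusted p = 0.0102), and Idh3a, a subunit of NAD-dependent isocitrate dehydrogenase (50.3 and 59.0 against 40.1, 41.5 and 44.5 CPM, -0.37, adjusted p = 0.021). Of 13 outer membrane and import genes, the import receptor subunit Tomm22 (-0.34, adjusted p = 0.0169) and the channel Vdac2 (-0.27, adjusted p = 0.0428) were lower. The 14 regulators of mitochondrial biogenesis had 0 lower and 1 higher (median 0.14): Polg, the mitochondrial DNA polymerase (33.3 and 33.1 against 44.1, 41.4 and 39.8 CPM, 0.33, adjusted p = 0.0193). The transcription factor Nrf1 (0.27, adjusted p = 0.148) and the co-activator Ppargc1a (10.9 and 12.0 against 10.7, 8.98 and 9.07 CPM, -0.26, adjusted p = 0.191) did not pass.

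Nuclear subunit genes are known targets of the factors NRF1, GABPA (an ETS factor, also called NRF-2) and YY1. Promoters from RefSeq (GRCm38.p6, the assembly of mm10; 250 bases before to 50 after the start) were found for 69 of the 87 genes, 75 promoters in all. Searched on both strands, the NRF1 letters GCATGCGC occurred in 13.3% of these promoters, in 4.8% of the promoters of tested genes and in 2.7% of all 32851 promoters. The ETS letters CCGGAAG occurred in 21.3%, 16.4% and 8.9%, and the YY1 letters AAGATGGC in 16.0%, 4.2% and 2.7%. The promoters of the genes called lower held them in 17.4%, 30.4% and 13.0% (23 promoters), and those of tested genes not called in 12.2%, 18.4% and 18.4% (49 promoters). These shares are descriptions, and a match is not evidence of binding. The bases before the start are shown for the Cox6b pair, since its members moved so differently, and for Ndufa8 and Atp5l, called genes with a match, in lower case with motif matches in capitals.
Cox6b2 promoter (chr7:4753095-4753344, minus strand): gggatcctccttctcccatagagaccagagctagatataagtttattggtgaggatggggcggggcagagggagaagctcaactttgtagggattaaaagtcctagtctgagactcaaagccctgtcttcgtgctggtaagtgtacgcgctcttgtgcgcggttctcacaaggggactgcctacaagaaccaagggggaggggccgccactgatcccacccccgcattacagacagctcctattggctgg
Cox6b1 promoter (chr7:30626115-30626364, minus strand): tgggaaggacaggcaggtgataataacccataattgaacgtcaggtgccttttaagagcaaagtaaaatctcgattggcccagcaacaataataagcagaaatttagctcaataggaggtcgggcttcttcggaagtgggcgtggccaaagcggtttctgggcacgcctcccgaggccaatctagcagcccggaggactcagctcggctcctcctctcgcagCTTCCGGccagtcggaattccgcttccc
Ndufa8 promoter (chr2:36049339-36049588, minus strand): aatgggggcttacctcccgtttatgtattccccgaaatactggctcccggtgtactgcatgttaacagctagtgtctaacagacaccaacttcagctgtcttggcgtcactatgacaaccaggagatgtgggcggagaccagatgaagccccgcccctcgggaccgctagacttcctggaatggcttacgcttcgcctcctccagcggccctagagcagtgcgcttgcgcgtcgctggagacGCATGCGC
Atp5l promoter (chr9:44920743-44920992, minus strand): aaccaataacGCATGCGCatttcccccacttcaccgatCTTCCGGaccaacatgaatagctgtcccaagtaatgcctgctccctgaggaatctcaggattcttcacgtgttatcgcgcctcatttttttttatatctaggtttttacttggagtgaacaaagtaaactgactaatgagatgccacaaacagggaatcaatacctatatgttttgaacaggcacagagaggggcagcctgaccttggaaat
Cox6b1 holds an ETS match near its start, Ndufa8 an NRF1 match that ends at its start, and Atp5l an NRF1 and an ETS match at the far end of the window. The Cox6b2 window holds none of the 3 letter strings, which says nothing about which factors act there.

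Markers of blood cells differed between the groups. Of 6 erythroid markers 5 were lower, with summed levels of 3220 to 3877 CPM in the wild-type and 1886 to 2195 CPM in the heterozygous group. All 6 neutrophil markers were higher (97.4 to 142 against 317 to 406 CPM), as were all 4 B cell markers (9.51 to 13.8 against 26.3 to 32.6 CPM). The 6 hepatocyte markers defined the tissue with 155700 to 168879 CPM in the wild-type and 166098 to 181002 CPM in the heterozygous group, 2 of them lower and 1 higher. None of the 4 cholangiocyte markers passed (11.0 to 15.7 against 15.9 to 16.3 CPM), and of 5 Kupffer cell markers 1 was lower (198 to 313 against 219 to 259 CPM). The part of these cell types in the respiratory chain differences was not tested.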

How the data were processed

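Libraries had been prepared with the TruSeq kit from total RNA of snap-frozen liver and run on a HiSeq instrument (per the labels' protocols). TopHat and mm10 are named in the submitters' processing notes. What made the counts, with which annotation and strand setting, is not given in the sources used here. The unit of the deposited files is estimated counts for each Ensembl gene, scaled neither to depth nor to length. These were rounded to whole numbers, filtered with filterByExpr (minimum count 10, leaving 13959 genes with 99.9% of the counts), scaled by TMM and tested with the two-sided quasi-likelihood test of edgeR 4.0.16 in R 4.3.3, without covariates, p-values being adjusted by Benjamini-Hochberg across the genes tested (threshold 0.05). The common biological coefficient of variation was 0.0762. Alternatives used DESeq2 1.42.0, limma 3.58.1, other filters and scalings, a replicate block, each library left out and an offset for transcript length (smooth fit of log2 values on length, span 0.3).

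Transcript lengths and positions came from GENCODE M21 on the same build, using the shortest principal transcript of best support. Shared sequence is the share of 50-base stretches of that transcript found in transcripts of other genes. Totals ranged from 11944157 to 17312851 counts, where 3 counts correspond to 0.174 to 0.252 CPM; such floors cover counting error only. No libraries agreed within sampling noise (chi-square per degree of freedom 5.3 to 8.86 within genotypes). The procedure was tested on simulated data.

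The members and lists were chosen with earlier results of these data known. The rule for named genes took up to 6 members of each complex by p, every tissue-specific isoform and its partner, members nearest the threshold, and up to 3 genes of each related list. Other members named by their role, the neighbours of Cox6b2, the role groups, the length classes and the longest-transcript offset were chosen after their values were seen. The values of 1 member are not reported here, and it is left out of the plot of individual genes but enters the counts, sums, medians and the plot against length.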

Additional observations from a re-analysis of the deposited data

How the results depend on the processing

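Against 24 genes lower as reported, 22 to 34 were lower with DESeq2, robust limma, 2 other filters and 2 other scalings, and 24 without the rows that are not subunits. Leaving out each library in turn gave 3 to 14 lower. The length offset gave 2 lower, 1 higher and a median of -0.05; with the replicate block added, 2 lower, 1 higher and a median of -0.04; with the longest principal transcript, 3 lower, 1 higher and a median of -0.05. The replicate block alone gave 16 lower and 0 higher. The labels' numbers 1 and 2 occur in both genotypes, and the deviations of same-numbered libraries correlated at 0.0304 and 0.0286. With 2 wild-type libraries the wild-type deviations mirror each other, so the values cannot show whether same-numbered libraries share a litter or batch. Signs turned for the complex II median (-0.02 by library size alone, and -0.07 to 0.11 over fits without 1 library) and for genes that did not pass. With the length offset 20 of the 80 members turned from negative to values of 0.01 to 0.11, none of them called. Among genes taken by the naming rule, those that turned were 1110058L19Rik (0.02), Cox6a1 (0.01), Cox6b1 (0.01), Ndufa4l2 (0.06) and Sdhd (0.10). With the block added such genes were Cox6a1 (0.0), Ndufa4 (0.02) and Sdhd (0.16), and with the longest transcript 1110058L19Rik (0.02), Cox6a1 (0.01), Cox6b1 (0.01), Ndufa4 (0.0), Ndufa4l2 (0.07) and Sdhd (0.10). Sdhd also turned with no filter (0.0) and with the block alone (0.05). Over the fits that each leave out 1 library, values ran from -0.14 to 0.13 for Sdhd, -0.14 to 0.03 for Ndufa4l2, -0.01 to 0.15 for Atpaf2 and -0.0 to 0.09 for Sdhb. Beyond the length terms and fewer libraries, the cause was not tested.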
